A study of Mus musculus with 24 samples.

Results

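Bone morphogenetic proteins (BMPs) are secreted ligands of the TGF-beta superfamily, and 10 genes that encode such ligands or their inhibitors were followed through hip cap and metatarsal cartilage explants of the mouse. They were chosen by gene symbol, with earlier results of these data known, and are 10 of the 52178 genes in the deposited count table. The ligands are Bmp2, Bmp4, Bmp6, Bmp7 and Gdf10 (also called Bmp3b). Grem1, Chrdl1, Chrdl2 and Nog encode secreted proteins that bind BMP ligands outside the cell, and Bambi encodes a membrane pseudoreceptor that lacks a kinase domain. All 10 passed the filter on low counts.

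A BMP ligand brings type I and type II receptor kinases together at the cell surface, and the type I receptor then phosphorylates Smad1, Smad5 and Smad9, which enter the nucleus with Smad4 and drive target genes such as the Id genes. Gremlin, noggin and the chordin-like proteins hold ligands away from these receptors, so that a cell's response depends on antagonists as well as on ligands. In skeletal development, BMPs drive cartilage condensation, chondrocyte proliferation and hypertrophy, while noggin is required for joints to form and gremlin 1 is known for its high expression in articular cartilage.

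Hip caps are the femoral heads of 4-week-old male C57/BL6 mice (C57/BL6J in the study's methods), and stand for articular cartilage in the study. They were pooled 2 to a sample, and by those methods both came from 1 mouse, with 4 mice to a group. Metatarsals came from embryos of the same strain at day 15 of gestation, whose sex is not given, pooled 6 to a sample, and stand for growth plate cartilage. Both were cultured for 24 h, held for 1 h at 0 MPa (control), 5 MPa (called physiological) or 50 MPa (called injurious), and cultured for 24 h more before total RNA was extracted. The labels write these pressures in mPa and the study's methods in MPa, and the latter is used here. Hip caps were kept in DMEM with GlutaMAX, and metatarsals in alpha-MEM with albumin, beta-glycerophosphate and ascorbic acid. Tissue, age, sex and culture medium therefore differ together, and cannot be told apart. Each of the 6 groups held 4 libraries, and 22 of the 24 entered the fit. Hip cap control replicate 4 and hip cap 50 MPa replicate 2 were left out as outliers in the study. The value of the former is given for each member in the comparison of control tissues, and that of the latter for some members. The hip cap samples of a group were thus separate mice. Nothing in the labels says that the samples of a group came from separate litters or culture days. The p-values therefore measure the spread between these pooled samples.

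Library totals ran from 4185241 to 25104240 estimated counts. Which run a library belonged to was taken from the colours of a clustering figure and is uncertain, with 9 libraries in run 1 and 15 in run 2, since the study's methods divide the libraries between sequencing kits in other numbers. Run 1 held the hip cap controls used, every hip cap at 50 MPa, metatarsal control replicate 1 and metatarsal 50 MPa replicate 4, and run 2 held the others, among them every hip cap at 5 MPa. By the labels 6 libraries were unstranded, hip cap control replicate 3, the hip caps at 50 MPa and metatarsal 50 MPa replicate 4. RNA integrity was low, which the study's methods call typical of such explants and read as a sign of some degradation. Cartilage markers (10 genes, among them Col2a1, Acan and Sox9) summed to between 49600 and 78200 CPM (counts scaled to a common library total) in hip cap controls and to between 1920 and 5100 CPM in metatarsal controls. They summed to 9240 CPM in the hip cap control that was left out. Markers of perichondrium and fibroblasts (10 genes) summed to between 1580 and 2750 CPM in hip cap controls and to between 6610 and 9490 CPM in metatarsal controls, and skeletal muscle markers (8 genes) to at most 24.7 CPM against at least 1020 CPM. In bulk tissue, fewer cells of a type and less RNA per cell cannot be told apart.

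Promoter sequence could be matched for 4 of the 10 members (Bmp4, Bmp6, Gdf10 and Grem1), in RefSeq's table for GRCm38.p6. The 250 bases before the start are shown for 3 of them, a ligand that was lower in hip caps than in metatarsals (Bmp4) and a ligand and an antagonist that were higher (Gdf10, Grem1), because these are the members whose levels set the tissues apart, whose promoters are in the table and whose windows overlap no annotated exon. They run 5′ to 3′ on the strand of the gene, at chr14:46390670-46390919 (minus strand) for Bmp4, chr14:33923337-33923586 (plus strand) for Gdf10 and chr2:113758649-113758898 (minus strand) for Grem1. Capitals mark the GC box GGGCGG, the TATA box TATAAA and the GC-rich element GGCGCC known from SMAD binding, each searched on both strands.

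Bmp4: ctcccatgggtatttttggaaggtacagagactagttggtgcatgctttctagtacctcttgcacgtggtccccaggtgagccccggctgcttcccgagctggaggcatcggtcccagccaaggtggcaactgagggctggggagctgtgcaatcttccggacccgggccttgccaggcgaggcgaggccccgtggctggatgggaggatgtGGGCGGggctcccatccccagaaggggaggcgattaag

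Gdf10: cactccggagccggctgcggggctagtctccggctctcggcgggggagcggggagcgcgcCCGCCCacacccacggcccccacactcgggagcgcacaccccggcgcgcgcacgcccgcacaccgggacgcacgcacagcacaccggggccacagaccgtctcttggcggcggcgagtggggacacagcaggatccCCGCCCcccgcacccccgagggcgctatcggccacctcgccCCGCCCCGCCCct

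Grem1: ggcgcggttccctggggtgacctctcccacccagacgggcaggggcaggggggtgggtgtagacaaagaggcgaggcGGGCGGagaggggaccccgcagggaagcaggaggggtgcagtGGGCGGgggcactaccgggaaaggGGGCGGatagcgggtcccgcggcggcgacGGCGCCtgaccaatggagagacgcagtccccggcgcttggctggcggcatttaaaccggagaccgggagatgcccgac

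Bmp4 held 1 GC box, Gdf10 held 4, of which 2 overlap by their end bases, and Grem1 held 3. A GC box was present in 32.7% of the 32851 promoter windows of this length. The GGCGCC element was found once, in Grem1, against 9.59% of all windows, and the TATA box in none of the 3, against 12.4%. All 3 windows were rich in G and C, at 63.2% in Bmp4, 78.8% in Gdf10 and 72% in Grem1, where the median window had 52.4%. These matches describe the letters of the windows and say nothing about binding.

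Which of these genes differ between the tissues was asked first in the controls, hip caps (n = 3) against metatarsals (n = 4). Of the 10 members, 7 were higher in hip caps and 1 was lower, while 29.9% of the 21283 genes tested passed the same threshold, 14.1% higher and 15.9% lower. All 4 secreted antagonists and Bambi were among the higher genes. Among ligands, Gdf10 and Bmp6 were higher, Bmp4 was lower, and Bmp2 and Bmp7 did not pass. In 8 of 10 the groups did not overlap in CPM, which is not corrected for run (42.4% of all genes). All 3 hip caps used were in run 1, and of the metatarsals only replicate 1 was. Without that replicate the count of 8 members past the threshold fell to 5. The median log2 fold change of the members was 1.82, where the median over all genes tested was -0.08. The tests are edgeR's quasi-likelihood tests with sequencing run and library type as terms, adjusted over all genes by the Benjamini-Hochberg method, with a threshold of 0.05.

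Chrdl1 encodes chordin-like 1, an extracellular binder of BMP4 and related ligands, and had the largest difference of the 10. It had 137, 317 and 118 CPM in the 3 hip cap controls and 11.9, 4.87, 9.09 and 5.94 CPM in the 4 metatarsal controls. The groups lay far apart, and hip cap replicate 2 stood above the other replicates. Chrdl1 differed by a log2 fold change of 4.29 (SE 0.45, adjusted p = 9.16e-07), or 19.6-fold. The hip cap control that was left out had 41.2 CPM, below the other hip caps but above every metatarsal.

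Chrdl2, the paralogue of Chrdl1, was measured at a far lower level. It had 12.8, 12.3 and 13.4 CPM in hip cap controls and 1.72, 1.66, 2.8 and 3.78 CPM in metatarsal controls. The 3 hip caps were close together and all above the metatarsals, with a log2 fold change of 2.84 (SE 0.43, adjusted p = 3.49e-05). The left-out control had 3.28 CPM, inside the range of the metatarsals.

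Nog encodes noggin, which covers the receptor-binding sites of BMP ligands. Its levels were 15.5, 16.5 and 19.1 CPM in hip cap controls and 4.21, 4.6, 5.43 and 2.01 CPM in metatarsal controls. The groups did not overlap, and the log2 fold change was 2 (SE 0.53, adjusted p = 0.00728). With library sizes alone, or without hip cap control replicate 3, metatarsal control replicate 1 or metatarsal 50 MPa replicate 4, it no longer passed. Its adjusted p reached at most 0.0996 over all settings. The left-out control had 5.74 CPM.

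Grem1 encodes gremlin 1, an antagonist of BMP2, BMP4 and BMP7. It had 58.2, 55.5 and 37.9 CPM in hip cap controls and 13.6, 13.6, 22.6 and 15.6 CPM in metatarsal controls, with no overlap. This gave a log2 fold change of 1.64 (SE 0.33, adjusted p = 0.000719). Unlike the other antagonists, Grem1 was higher in the left-out control than in the hip caps used, at 121 CPM. Without metatarsal control replicate 1, the only metatarsal control in run 1, Grem1 no longer passed. With library sizes alone it did not pass either.

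Bambi had 60.9, 32.8 and 73.3 CPM in hip cap controls and 9.57, 8.72, 10.4 and 8.8 CPM in metatarsal controls. The metatarsals lay close together while hip cap replicate 2 stood well below the other hip caps, and the groups did not overlap. The log2 fold change was 2.48 (SE 0.33, adjusted p = 9.72e-06), and it stayed past the threshold in all 33 other settings. The left-out control had 22.1 CPM, below the hip caps used and above every metatarsal.

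Gdf10 encodes a ligand close to BMP3, which binds receptors without the usual BMP response. It had 127, 92.1 and 136 CPM in hip cap controls and 14.2, 23.9, 17.3 and 16.8 CPM in metatarsal controls. All hip caps stood well above all metatarsals, with a log2 fold change of 2.7 (SE 0.43, adjusted p = 0.000107). In the left-out control it was 23.2 CPM, within the range of the metatarsals.

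Bmp6, a ligand produced by hypertrophic chondrocytes, had 15.8, 11.6 and 17.8 CPM in hip cap controls and 4.59, 4.92, 4 and 8.26 CPM in metatarsal controls. The groups did not overlap, and the log2 fold change was 1.42 (SE 0.39, adjusted p = 0.00798). Bmp6 had 1.57 CPM in the left-out control, and with all 24 libraries its log2 fold change was 0.37 and did not pass. Its call was also lost with library sizes alone and without metatarsal control replicate 1. Txndc5 and 4930579J19Rik overlap the Bmp6 locus on the opposite strand, as Gm15217 and Gm15222 do at Bmp4. Of the 31-base words in annotated transcripts, 5.2% for Bmp6 and 3.55% for Bmp4 also occur in other genes on either strand. Reads of the unstranded libraries that lie in such shared words may not be told apart.

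Bmp4, a ligand of the perichondrium in developing bone, was the only member lower in hip caps. It had 1.9, 2.71 and 1.52 CPM in hip cap controls and 13.8, 9.84, 9.61 and 12.8 CPM in metatarsal controls. Every hip cap lay below every metatarsal, at counts of 7 to 17 in the hip caps. Its log2 fold change was -2.67 (SE 0.4, adjusted p = 3.24e-05). The left-out hip cap control had 9.57 CPM, close to the metatarsals, and perichondrium and fibroblast markers summed to 7130 CPM there. Their part in the result was not tested.

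Bmp2, which drives chondrocyte hypertrophy, had 22.8, 15.6 and 24.9 CPM in hip cap controls and 13.4, 13.6, 15.3 and 15.8 CPM in metatarsal controls, so that a hip cap fell inside the metatarsal range. The log2 fold change was 0.72 (SE 0.34, adjusted p = 0.114), with a 95% interval from 0.02 to 1.42. It passed in 2 of 33 other settings, with all 24 libraries and without hip cap 50 MPa replicate 4. The left-out control had 30.5 CPM of Bmp2. Bmp7 had 12.5, 15.3 and 16.4 CPM in hip cap controls and 13, 19.7, 18.5 and 23.5 CPM in metatarsal controls. The ranges overlapped, and the log2 fold change was -0.02 (SE 0.29, adjusted p = 0.974), with an interval from -0.63 to 0.59. The left-out control had 3.89 CPM of Bmp7, below the libraries used in both groups.

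**Figure D1:**
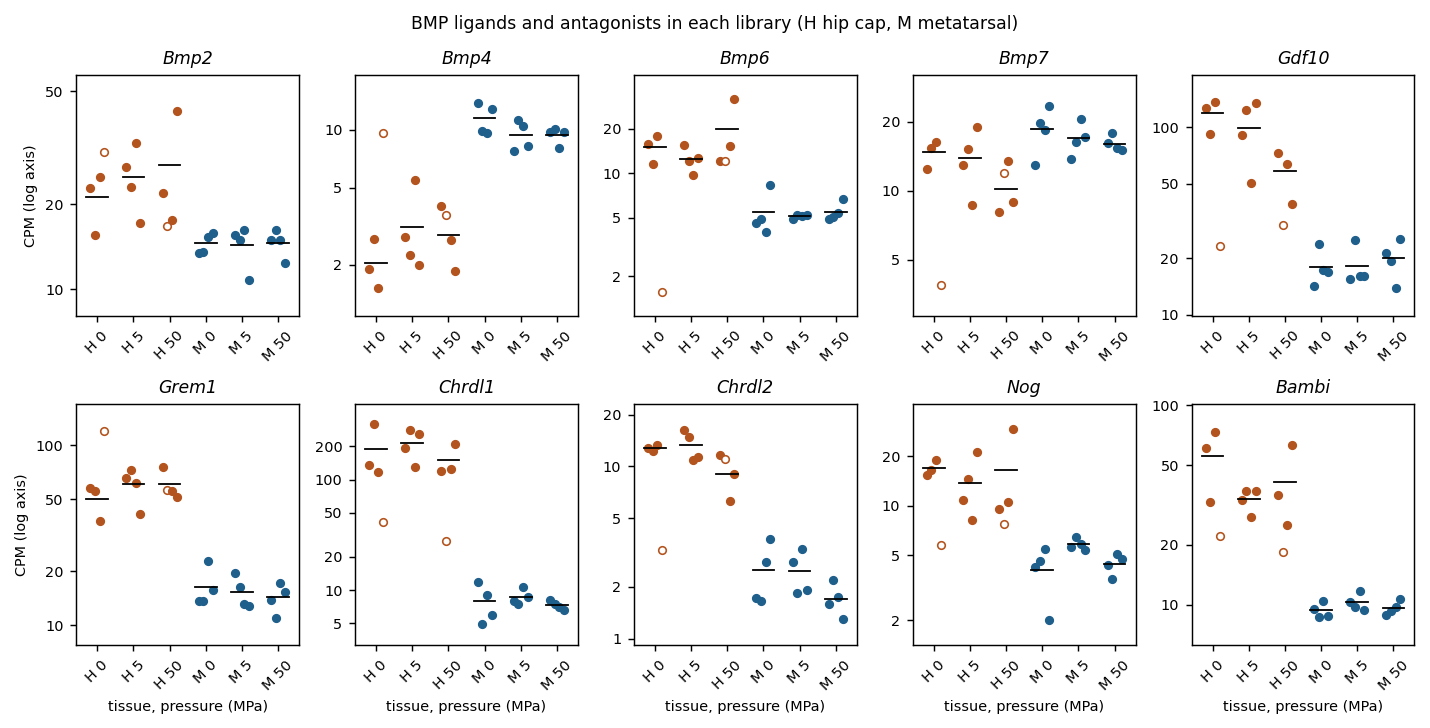
Level of each member in each library in CPM on a log axis, by tissue and pressure, with hip caps in brown and metatarsals in blue. Filled points entered the fit, open points are the 2 libraries left out, and bars are means of the filled points. Among the filled points, Chrdl1 sat in hip caps between 118 and 317 CPM and in metatarsals between 4.87 and 11.9 CPM, and Bmp4 ran the other way.

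The same comparison at 5 MPa lay wholly within run 2 and the stranded library type (n = 4 each), so that the batch terms cancel in it. Of the 10 members 9 passed the threshold, 8 higher and Bmp4 lower, against 37.9% of all genes (18.8% higher, 19.1% lower), and their median log2 fold change was 1.5 (-0.08 over all genes). The groups did not overlap in 9 members (40.8% of all genes). Chrdl1 had 192, 281, 130 and 261 CPM in hip caps and 7.95, 7.51, 10.7 and 8.59 CPM in metatarsals. Every hip cap was thus far above every metatarsal, and the log2 fold change was 4.64 (SE 0.31, adjusted p = 9.1e-10). Bmp4 had 2.8, 2.25, 5.46 and 2 CPM in hip caps and 7.72, 11.2, 10.5 and 8.25 CPM in metatarsals, again without overlap, with a log2 fold change of -1.58 (SE 0.26, adjusted p = 5.76e-05). The hip cap with the highest Bmp4, replicate 3, also had the highest sum of perichondrium and fibroblast markers in its group, at 10000 CPM, and how far these markers account for it was not tested.

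Bmp2 passed at 5 MPa, with 27, 22.9, 32.9 and 17.2 CPM in hip caps against 15.5, 14.9, 16.2 and 10.8 CPM in metatarsals. All hip caps were above all metatarsals, by a log2 fold change of 0.8 (SE 0.23, adjusted p = 0.00772). The difference in the controls was of similar size, at 0.72 with a larger SE of 0.34. For Bmp2 the interaction of tissue and 5 MPa was 0.08 (adjusted p = 0.97). The log2 fold changes of Chrdl2 and Gdf10 were 2.44 and 2.45, those of Grem1 and Bambi 1.98 and 1.72, and those of Bmp6 and Nog 1.29 and 1.24. Bmp7 again did not pass, at -0.28 (SE 0.2, adjusted p = 0.276).

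At 50 MPa, hip caps (n = 3) and metatarsals (n = 4) differed in 8 members, 7 higher in hip caps and Bmp4 lower, against 19.7% of all genes (10.1% higher, 9.58% lower), with a median of 1.62 (-0.01 over all genes). All 10 members lay apart between the tissues (39.9% of all genes). Chrdl1 had 121, 126 and 209 CPM against 8.2, 7.44, 7.03 and 6.55 CPM, and Grem1 had 76.3, 55.7 and 51.4 CPM against 13.8, 10.9, 17.2 and 15.2 CPM. Both were far above the metatarsals in every hip cap used, by log2 fold changes of 4.5 (SE 0.49, adjusted p = 1.99e-06) and 2.24 (SE 0.33, adjusted p = 4.88e-05). The left-out hip cap had 27.8 CPM for Chrdl1 and 56.3 CPM for Grem1, also above every metatarsal. Gdf10 was 2.56-fold higher (log2 fold change 1.35, SE 0.42, adjusted p = 0.0278), and lost its call in 9 of 33 other settings. Nog (1.68, adjusted p = 0.0359) also lost it in 9, among them the fit without hip cap 50 MPa replicate 4. Bmp2 (0.96, adjusted p = 0.0693) and Bmp7 (-0.46, adjusted p = 0.32) did not pass. In other settings Bmp2 passed with DESeq2, without batch terms and without hip cap 50 MPa replicate 3. The count of 8 fell to 3 without metatarsal 50 MPa replicate 4, the only library that ties the metatarsals at 50 MPa to run 1.

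**Figure D2:**
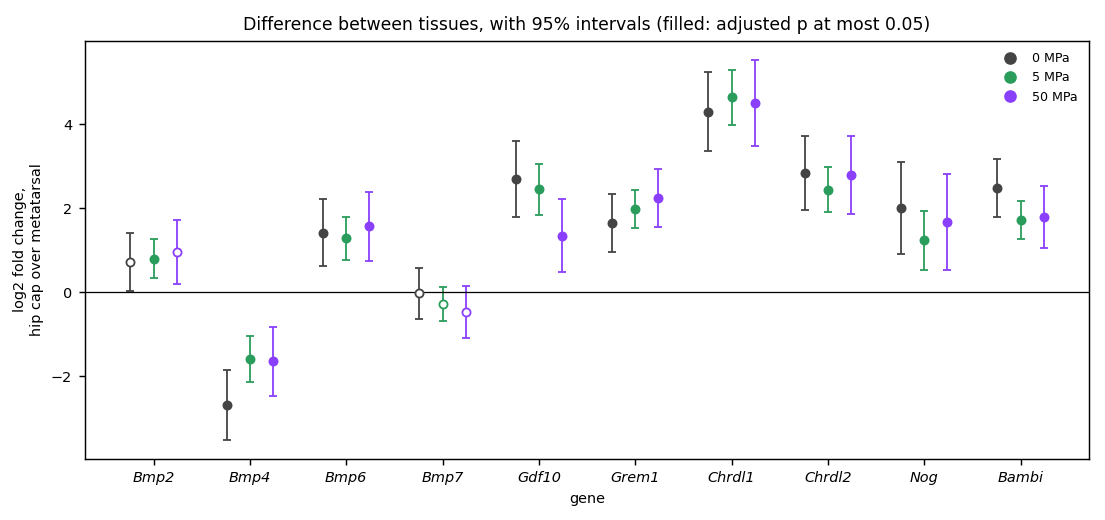
Log2 fold change of each member in hip caps over metatarsals at 0, 5 and 50 MPa, with 95% intervals from the edgeR fit. Filled points passed an adjusted p of 0.05, the 4 antagonists and Bambi at all 3 pressures, and Bmp4 lay below 0 at each.

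Levels of different genes were compared per kilobase of the longest annotated transcript. In hip cap controls Chrdl1 stood first at 46.6 CPM per kilobase, then Gdf10 at 22.7, Grem1 at 12.2, Bambi at 11, Nog at 10.1, Bmp2 at 5.93, Chrdl2 at 5.89, Bmp6 at 4.19, Bmp7 at 4.01 and Bmp4 at 0.99. Of the 9 pairs of neighbours in this order, 5 did not overlap between libraries, namely Chrdl1 over Gdf10, Gdf10 over Grem1, Nog over Bmp2, Chrdl2 over Bmp6 and Bmp7 over Bmp4. In metatarsal controls the order began with Bmp4 at 5.58, Bmp7 at 5.09 and Bmp2 at 4.08 CPM per kilobase, and ended with Bmp6 at 1.52 and Chrdl2 at 1.14. There all 9 pairs of neighbours overlapped. The highest member was 47.1 times the lowest in hip cap controls and 4.89 times in metatarsal controls. Per kilobase of coding sequence, Grem1 came first in metatarsals at 29.6 CPM and Bmp4 lay behind 5 other members, so the metatarsal order depends on the length used, while Chrdl1 stayed first and Bmp4 last in hip cap controls.

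The 4 secreted antagonists together reached between 55.4 and 106 CPM per kilobase in hip cap controls and between 7.95 and 12.2 in metatarsal controls. Bmp2, Bmp4, Bmp6 and Bmp7 together reached between 13.1 and 17.2 and between 15.1 and 19.4. The summed antagonist members were thus 3.23 to 8.12 times these 4 summed ligands in hip cap controls and 0.42 to 0.805 times in metatarsal controls. Gdf10, which is close to Bmp3, is not in this sum, and with it added the ratio fell to 1.28 to 3.45 in hip cap controls and 0.36 to 0.66 in metatarsal controls, still without overlap. Without Gdf10 the ratio was 3.32 to 6.76 at 5 MPa and 3.5 to 4.3 at 50 MPa in hip caps, against 0.644 to 0.847 and 0.481 to 0.7 in metatarsals. In the left-out hip caps it was 3.01 (control) and 2.29 (50 MPa). Per coding length the ratio was 4.17 to 10.6 and 0.81 to 1.53 in the controls, still without overlap. Chrdl1 alone made up 51.9% to 72.9% of the summed antagonists in hip cap controls and 14.9% to 30.7% in metatarsal controls. These sums cover the members alone, which were chosen with earlier results known, and not the whole balance of the pathway. Of 14 other secreted antagonists tested, 3 were higher and 6 lower in hip cap controls. Of 8 other ligands, 2 were higher (Bmp8a and Bmp3) and 3 lower.

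**Figure D3:**
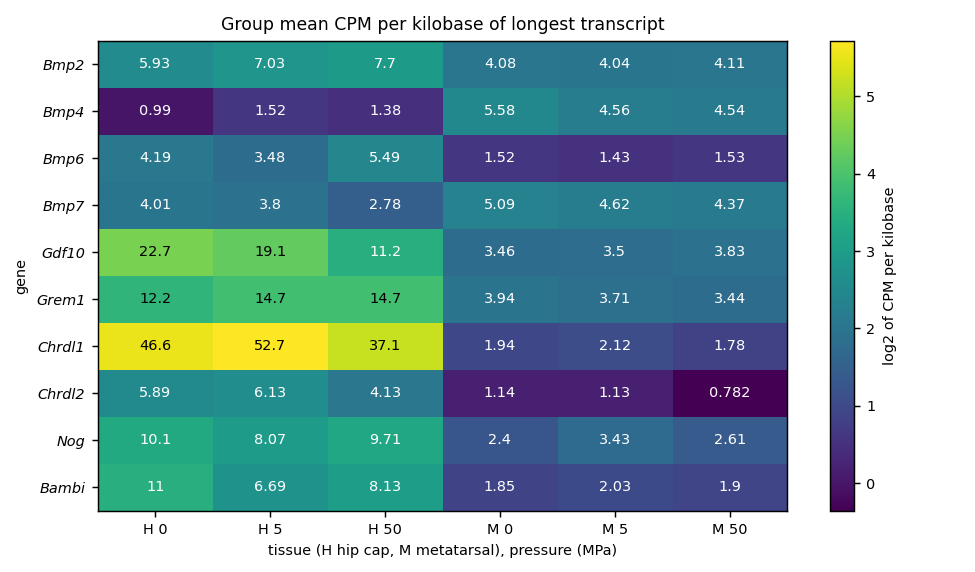
Group mean of each member in CPM per kilobase of the longest transcript, by tissue and pressure, with the colour on a log2 scale. Chrdl1 at 46.6 in hip cap controls was the highest member and Bmp4 at 0.99 the lowest, and in metatarsal controls the range was from 1.14 to 5.58.

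Whether pressure changed these genes was asked within each tissue. In hip caps, 0 of 10 members passed at 5 MPa against control (0.0188% of all genes), at 50 MPa against control (5.18%) and at 50 MPa against 5 MPa (0%). In metatarsals, 0 of 10 passed in each of the 3 comparisons, and neither did any other gene (0%). Without adjustment, a p under 0.05 was found for 0, 3 and 1 members in the hip cap comparisons, in this order, against 14.8%, 22.6% and 4.78% of all genes. It was found for 0 members in each metatarsal comparison, against 3.24%, 3.89% and 0.761% of all genes (689, 828 and 162). DESeq2 called 1 member in hip caps at 50 MPa against control, where it called 11.5% of all genes. In hip caps it called 0 members at 5 MPa against control (2.71% of all genes) and at 50 MPa against 5 MPa (0.188%). In metatarsals it called 0 members in each comparison, in the order above, against 0.0611%, 0.0423% and 0% of all genes. Groups without overlap were found for 0, 2 and 0 members in hip caps (16.2%, 15.8% and 13.2% of all genes) and for 0, 0 and 1 in metatarsals (2.88%, 4.48% and 2.42%). The comparisons with control share the same control libraries, and their values are given side by side.

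Gdf10 had the largest difference under pressure. In hip caps it had 127, 92.1 and 136 CPM in controls, 90.7, 123, 50.1 and 134 CPM at 5 MPa, and 73.2, 63.2 and 38.7 CPM at 50 MPa. All libraries used at 50 MPa lay below all controls used, while the values at 5 MPa overlapped both. The left-out libraries had 30.2 CPM at 50 MPa and 23.2 CPM in the control, so that with them the groups overlapped, and with all 24 libraries the log2 fold change was -1.13 (adjusted p = 0.267). A lower range without overlap was seen for 7.56% of all genes in this comparison. The log2 fold change at 50 MPa was -1.34 (SE 0.4, unadjusted p = 0.00324, adjusted p = 0.0561 in edgeR), with an interval from -2.17 to -0.51. It passed with DESeq2 (adjusted p = 0.013) and in the fit with the replicate number as a block (adjusted p = 0.0258). Within run 1 alone, in an edgeR fit without a library type term, it was -1.01 (adjusted p = 0.343). In that fit all hip caps at 50 MPa were unstranded, and of the controls only replicate 3 was. At 5 MPa the log2 fold change was -0.29 (SE 0.45, adjusted p = 0.796).

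In metatarsals, Gdf10 had 14.2, 23.9, 17.3 and 16.8 CPM in controls, 15.5, 25.1, 16.1 and 16.1 CPM at 5 MPa, and 21.3, 19.4, 13.8 and 25.3 CPM at 50 MPa. These ranges overlapped throughout, with log2 fold changes of -0.04 (SE 0.29) and 0 (SE 0.29). The difference between the tissues in the response to 50 MPa, tested as an interaction, was -1.34 (SE 0.45, adjusted p = 0.13), and DESeq2 put its adjusted p at 0.0424. In hip caps at 50 MPa the summed cartilage markers were also lower than in controls, at 33000 to 37700 CPM against 49600 to 78200, and their part in the result was not tested.

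Bambi had 60.9, 32.8 and 73.3 CPM in hip cap controls, 33.5, 37.3, 27.7 and 37.4 CPM at 5 MPa, and 35.5, 25.1 and 63.1 CPM at 50 MPa. The ranges overlapped, and the log2 fold changes were -0.65 (SE 0.36, adjusted p = 0.402) and -0.77 (SE 0.3, adjusted p = 0.136). Replicate 4 at 50 MPa stood above the other replicates of its group, and without it the log2 fold change at 50 MPa was -1.18 (adjusted p = 0.0119) and the interaction was -1.1 (adjusted p = 0.0441). The same library was the highest of its group for Bmp2 at 42.7 CPM, Bmp6 at 31.9 CPM, Nog at 29.4 CPM and Chrdl1 at 209 CPM, and its total of 7565163 counts was the lowest of the hip caps at 50 MPa.

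Chrdl2 also lay lower in all hip caps at 50 MPa that were used (11.7, 6.31 and 8.98 CPM) than in all controls used (12.8, 12.3 and 13.4 CPM). The left-out libraries had 11.1 CPM at 50 MPa and 3.28 CPM in the control, so that with them the groups overlapped. Its log2 fold change was -0.59 (SE 0.37, adjusted p = 0.358) and its interval ran from -1.36 to 0.18. At 5 MPa its mean was 13.3 CPM against 12.8 CPM in controls while the fitted log2 fold change was -0.54 (SE 0.46), since run and pressure differ together among these hip caps and the fit corrects for run through the metatarsals. Without batch terms the latter was 0.05.

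The other ligands and antagonists showed no difference past the threshold. In hip caps at 50 MPa, Bmp7 had 8.12, 13.5 and 8.98 CPM against 12.5, 15.3 and 16.4 CPM in controls, which overlapped, and a log2 fold change of -0.72 (SE 0.3, adjusted p = 0.157). Bmp4 had log2 fold changes of 0.92 (SE 0.46) at 5 MPa and 0.86 (SE 0.47) at 50 MPa, at counts of 6 to 106 in the libraries used. Chrdl1 lay at 0.72 (SE 0.45) and 0.38 (SE 0.4), and Grem1 at 0.25 (SE 0.35) and 0.45 (SE 0.33). The sign for Chrdl1 at 50 MPa depended on the batch terms. Its mean there was 152 CPM against 191 CPM in controls, and without batch terms its log2 fold change was -0.33. Nog was at -0.27 at both pressures (SE 0.57 and 0.49), and Bmp2 and Bmp6 lay between -0.27 and 0.2. The intervals of the members reached from -1.5 to 1.87 at 5 MPa and from -2.17 to 1.83 at 50 MPa.

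In metatarsals the log2 fold changes of the members lay between -0.26 (Bmp7) and 0.5 (Nog) at 5 MPa, and between -0.55 (Chrdl2) and 0.17 (Chrdl1) at 50 MPa. Their intervals reached from -0.72 to 1.26 and from -1.15 to 0.84. Nog had 5.57, 6.43, 5.83 and 5.4 CPM at 5 MPa and 4.36, 3.56, 5.05 and 4.72 CPM at 50 MPa, which did not overlap, as was seen for 2.42% of all genes. The log2 fold change between those pressures was -0.44 (SE 0.36, adjusted p = 1). For the other members the groups overlapped in every metatarsal comparison. The interaction of tissue and pressure passed for 0 members at 5 MPa (0.0188% of all genes) and 0 at 50 MPa (0.132%), with 1 and 2 members at an unadjusted p under 0.05 (11.2% and 18.3% of all genes) and 0 and 1 called by DESeq2 (0.601% and 6.34%).

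**Figure D4:**
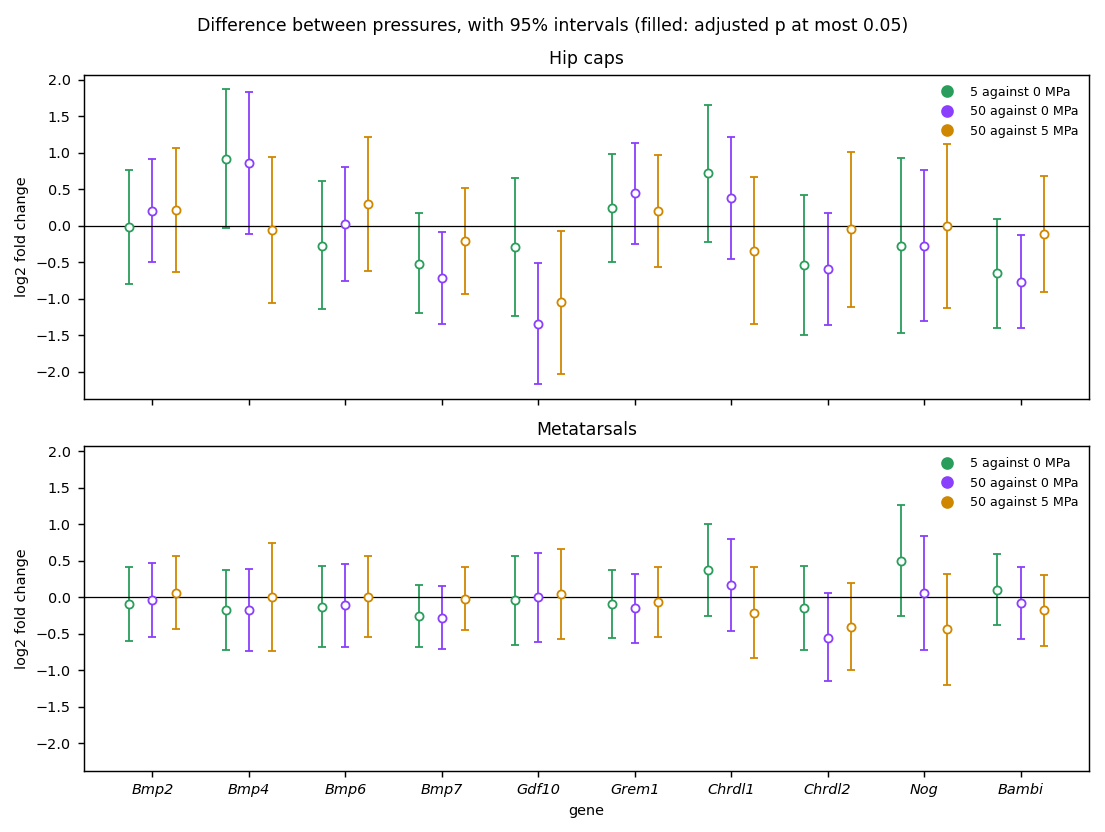
Log2 fold change of each member between pressures in hip caps (top) and metatarsals (bottom), with 95% intervals from the edgeR fit. No point is filled, as none passed an adjusted p of 0.05. Gdf10 at 50 MPa in hip caps, at -1.34, lay farthest from 0.

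The rest of the pathway was taken from lists of 68 further genes, of which 62 passed the filter and were tested. Of these, 15 passed as higher in control hip caps than in metatarsals and 19 as lower, with a median log2 fold change of -0.14, and at 5 MPa and 50 MPa 24 and 15 were higher and 17 and 16 lower. Setting genes without a count in any hip cap to their bound left these medians as they were. The background shares of 29.9%, 37.9% and 19.7% given above apply.

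Among other secreted antagonists, 3 of 14 were higher and 6 lower in hip cap controls, where all 4 antagonist members were higher. Sost, which encodes the osteocyte protein sclerostin, averaged 30.1 ± 2.92 CPM (SD of 3 hip caps) against 0.0991 ± 0.165 CPM (SD of 4 metatarsals) (log2 fold change 8.39, SE 1.3, adjusted p = 0.000111). Twsg1 and Crim1 were higher as well, by log2 fold changes of 1.37 and 1.49. Chrd, which encodes chordin itself, went opposite to its relatives Chrdl1 and Chrdl2, at -1.18 (SE 0.36, adjusted p = 0.0178). Its call in the controls was lost without hip cap control replicate 3, metatarsal control replicate 1 or metatarsal 50 MPa replicate 4, with voom weighted by tissue and with the replicate block, and its adjusted p reached at most 0.147 over these settings. Follistatin (Fst) and its relative Fstl1 were lower, by -1.92 and -1.86.

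Of 8 other ligands tested, 2 were higher and 3 lower in hip cap controls. Bmp8a averaged 74.3 ± 29 CPM against 0.965 ± 0.666 CPM, a log2 fold change of 5.99 (SE 0.7, adjusted p = 5.55e-06). Bmp3, the closest relative of Gdf10, was likewise higher, at 82.5 ± 14.8 CPM against 17.2 ± 3.72 CPM (log2 fold change 2.6, SE 0.22, adjusted p = 2.94e-08). Gdf5 and Gdf6, which mark developing joints, were lower at -2.47 (SE 0.44) and -4.25 (SE 0.62), as was Bmp5 at -1.75 (SE 0.3).

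Receptors and co-receptors were higher in 1 and lower in 5 of 13. Bmpr1b, a type I receptor needed for cartilage condensations, averaged 2.36 ± 0.538 CPM against 23.4 ± 5.2 CPM in metatarsals (log2 fold change -3.31, SE 0.27, adjusted p = 1.76e-08). The type II receptors Acvr2a and Acvr2b were at -1.75 and -0.94. The co-receptor gene Hjv had 0 counts in all 3 hip cap controls and 4.4 CPM in metatarsals, at least 30-fold lower against a limit of 3 counts over the group. Proteases that process ligands or antagonists were higher in 2 and lower in 3 of 7. The proprotein convertase gene Pcsk6 averaged 1270 ± 192 CPM against 13.2 ± 6.3 CPM (log2 fold change 6.93, SE 0.54, adjusted p = 1.75e-08), and Tll2, at 0 counts in the hip caps, was at least 5.26-fold lower.

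Downstream, Smads and their ubiquitin ligases were higher in 1 of 8 (Smad9, 1.82, SE 0.28) and lower in 1 (Smad5, -0.42, SE 0.15). Target genes were higher in 6 of 12 and lower in 1, with a median log2 fold change of 1.01. Id4 averaged 98.4 ± 9.34 CPM against 4.47 ± 1.39 CPM (log2 fold change 4.34, SE 0.39, adjusted p = 7.72e-08), and Id1 was higher at 1.46 (SE 0.22), while Id2 was lower at -1.03 (SE 0.23). Runx2 and Sp7, which drive hypertrophy and bone formation, were higher at 2.7 and 3.48. Osteoblast markers, among them Sp7, were higher in 5 of 6 genes and hypertrophic chondrocyte markers in 5 of 5, and their part in these results was not tested.

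**Figure D5:**
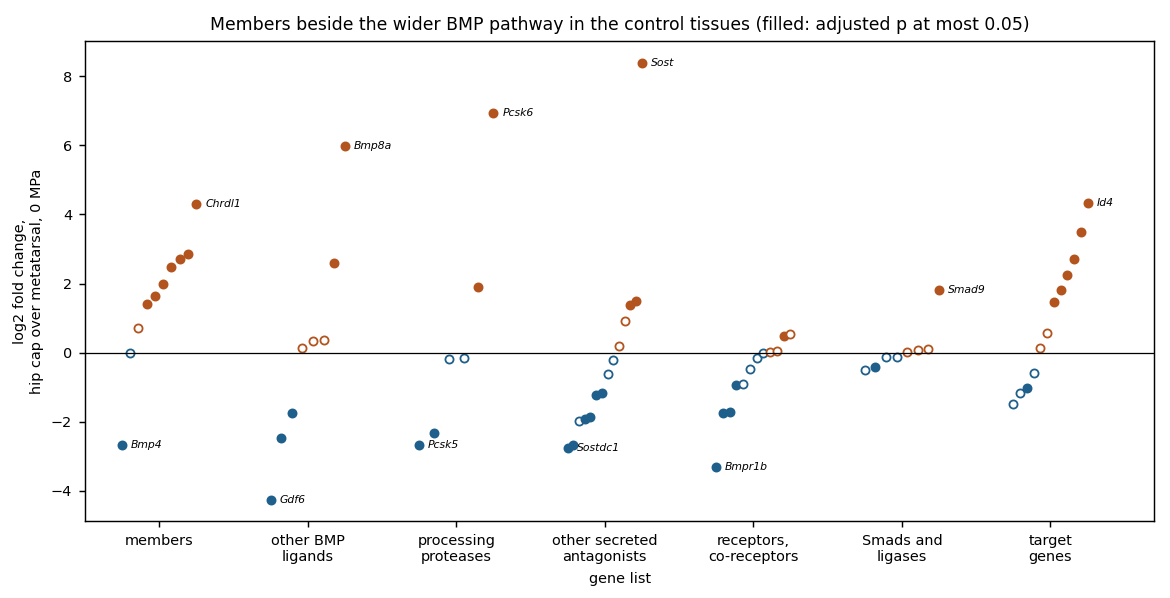
Log2 fold change in hip caps over metatarsals in the controls, for the 10 members and for 60 of the 62 pathway genes tested, by list. The 2 genes with a group at 0 are not drawn. Filled points passed an adjusted p of 0.05. Antagonist members lie above 0, and the other secreted antagonists lie on both sides, from Sost at 8.39 downwards.

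Under pressure, 5 of the 62 passed edgeR's test in hip caps at 50 MPa against control, 3 upwards and 2 downwards (5.18% of all genes), and no pathway gene passed in the other comparisons of pressures or in the interactions. The activin subunit gene Inhba averaged 22.5 ± 2.85 CPM in the 3 controls (SD) and 76.5 ± 32.6 CPM in the 3 hip caps at 50 MPa (log2 fold change 1.99, SE 0.44, adjusted p = 0.0205). Of the BMP target genes, Id1 was lower (-0.98, SE 0.21, adjusted p = 0.0166), Id2 was higher (1.17, SE 0.26, adjusted p = 0.0201) and Sp7 was lower (-1.07, SE 0.28, adjusted p = 0.0359). Smurf2, a ubiquitin ligase for Smads, was higher (0.68, SE 0.19, adjusted p = 0.0418). Inhba and Sp7 did not overlap between the groups, and the other 3 did. Single libraries and settings decided these calls. All 5 fell short of the threshold without hip cap control replicate 3 and with all 24 libraries. They also did with the GC trend removed and with library sizes alone. Hip cap control replicate 3 was the only unstranded hip cap control, while every hip cap at 50 MPa was unstranded. Without it, pressure and library type are separated in hip caps only through metatarsal 50 MPa replicate 4. Within run 1, fitted without a library type term, none of the 5 passed either, and the log2 fold changes of Id1 and Sp7 were -0.66 and -0.69. Smurf2 passed in 9 of 34 other settings. The 1102 genes behind the share of 5.18% fell as well, to 145 with the GC trend removed, 44 with library sizes alone, 2 with all 24 libraries, 1 without hip cap control replicate 3 and 0 within run 1.

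For each member the genes of most similar pattern were taken by Pearson's r of log2 CPM over the 22 libraries among 14089 genes, as a description, since these libraries share tissue, run and depth. Chrdl1 was most like Csgalnact2 (r = 0.992), which encodes an enzyme of chondroitin sulfate synthesis, and Ivns1abp (r = 0.991). For Bambi they were Osbpl5 and Herpud1 (r = 0.984 each), for Grem1 Sod3 (0.971) and Csmd1 (0.966), for Chrdl2 Prkag2 (0.97) and Nacc2 (0.968), and for Nog H2-Ab1 (0.961) and Cox4i2 (0.96). Among ligands, Bmp4 was most like Gdf11 (r = 0.977), which encodes another ligand of the superfamily, and Atrnl1 (r = 0.97). Gdf10 was paired with Irs1 (0.968) and Syt8 (0.965), Bmp6 with Stard10 (0.962) and Lzic (0.956), Bmp2 with Mapkapk2 (0.923) and Phospho1 (0.907), and Bmp7 with Vmn1r209 (0.822) and Shisa2 (0.816). After the tissue means were subtracted, Gdf11 was still first for Bmp4 (r = 0.819) and Prkag2 for Chrdl2 (r = 0.8), while the first gene changed for the other 8 members. Bmp7, which passed in no tissue comparison, had the lowest r with its first gene. Among the members themselves, Bmp4 ran opposite to Bambi (r = -0.958) and Nog (r = -0.935) over all libraries. After the tissue means were subtracted the values were -0.658 and -0.714. Within the 10 hip caps they were -0.744 and -0.829, and within the 12 metatarsals -0.173 and -0.498.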

How the data were processed

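RNA-seq libraries of 24 pooled cartilage samples in 6 groups were quantified by the authors. Per the labels and the study's methods, ribosomal RNA was depleted, reads were trimmed (Trim Galore 0.6.5) and quantified with kallisto, and tximport summed transcripts to genes, with GRCm39 named in the submitters' processing notes. The deposited values are estimated counts (26.6% of them not whole), with no normalization, and were rounded here. Gene names and lengths came from GENCODE M21 on GRCm38 (48845 of 52178 genes matched), and no coordinates were converted.

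After filterByExpr 21283 genes were fitted with edgeR 4.0.16 (TMM factors, robust quasi-likelihood, R 4.3.3) over 22 libraries, with group, sequencing run and library type as terms. Adjustment followed Benjamini and Hochberg over all these genes with a threshold of 0.05, and levels are CPM (counts scaled to TMM-corrected library totals). Sequencing run was read from a figure and is uncertain, as the libraries per kit in the study's methods differ from it. Alternatives were DESeq2 1.42.0, limma 3.58.1 with voom weights, other scaling, filters, batch terms and samples, and leaving out each library. Scripts were tested on simulated data. The members and gene lists were chosen with earlier results of these data known. By rule, all members, for each the 2 genes of highest r, and any gene of the fixed pathway and marker lists could be named, starting with the 3 highest and 3 lowest past the threshold in a comparison. The labels do not say whether replicate numbers pair libraries across groups, and the main fit treats the libraries as unpaired.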

Additional observations from a re-analysis of the deposited data

Results flagged for a closer look

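Of the 60 sets of 4 libraries tested (10 members in 6 groups, all 24 libraries scaled together), 6 held a library whose gap to the nearest other library was above Dixon's 95% critical value. Chance flags about 1 in 20 such sets. In hip cap controls, replicate 4 stood apart for Bmp4 at 9.57 CPM, above the others, and for Chrdl2 at 3.28 CPM, below them. This library was left out of the fit. In hip caps at 50 MPa, replicate 4 stood above the others for Bmp6 at 30.9 CPM and for Nog at 28.5 CPM. It was kept in the fit, and without it the log2 fold change against control was -0.44 for Bmp6 and -0.9 for Nog, neither past the threshold. In metatarsals, Gdf10 at 24.4 CPM was high in 5 MPa replicate 2, and Bmp4 at 7.76 CPM was low in 50 MPa replicate 3.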

How the results depend on the processing

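The 25 differences of members past the threshold were recomputed under other settings, giving 828 values. All had the same sign, 791 stayed past the threshold and 37 did not. Of 2830 values of the differences not past it, 17 passed, and 245 had the other sign without passing in either. The count of 8 members in the controls was 5 with library sizes alone and ranged from 5 to 9 with a library left out, where the 5 came without metatarsal control replicate 1. At 5 MPa it stayed at 9 whichever library was left out. At 50 MPa the count of 8 was 5 with library sizes alone, 3 with all 24 libraries and between 3 and 8 with a library left out, where the 3 came without metatarsal 50 MPa replicate 4. For hip caps at 50 MPa against control, 1 member (Gdf10) was called in place of 0 with DESeq2, with at least 10 counts in every library and with the replicate block (log2 fold change -1.51), and 0 to 1 with a library left out. Over all genes, the 1102 called in that comparison became 2455 with DESeq2, 145 with the GC trend removed, 44 with library sizes alone and 1 without hip cap control replicate 3. For the interaction with 50 MPa it was 1 with DESeq2 and 0 to 1 with a library left out. Other calls of members did not change under the replicate block, but those of Chrd (-1.03), Vwc2 (-2.56) and Tgfbr3 (0.48) in the controls were lost. Residuals of libraries with the same replicate number had r from -0.13 to 0.16, which cannot exclude a shared litter or culture day. Library sizes alone moved the median of all genes by -0.89, -0.62 and -0.89 between tissues at 0, 5 and 50 MPa, and turned the sign of Tgfbr3 in the controls (-0.43), of Acvr1 (-0.17), Neo1 (-0.18) and Smurf2 (-0.26) at 5 MPa and of Smurf2 at 50 MPa (-0.29). Tll2 at 50 MPa was 1.84 with all 24 libraries. Otherwise the cause of these changes was not tested. The hip caps used at 5 MPa and in the controls come from different runs. Pressure and run are thus separated only through metatarsal control replicate 1 and metatarsal 50 MPa replicate 4. Without hip cap control replicate 3, 50 MPa and library type are separated in hip caps only through metatarsal 50 MPa replicate 4. Between the control tissues, only metatarsal control replicate 1 shares a run with the hip caps used. Bmp4 in hip cap controls rests on 7 to 17 counts a library.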
